A study of Homo sapiens with 12 samples.

Results

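The genes described are 40 genes of the endoplasmic reticulum (ER) stress response and of the ATF4 programme, taken by name, of which 38 had a probe set that names 1 gene, out of 10346 such genes on the array. For each gene the brightest of these probe sets over the 12 arrays was used. CHAC1 was not analysed here, and SYVN1 had only 1 that it shares with another gene. ERN1 and STC2 lay under the filter on low levels (a mean log2 level of 7.54 over all arrays), which left 36 genes among the 7760 tested. The cells were U251, an established human glioblastoma line, transfected with pooled small interfering RNA (siRNA) against ETV6, a transcriptional repressor of the ETS family, against NFKB1, which encodes the precursor of the NF-kB subunit p50, or against both (double siRNA), each siRNA at 50 nM. The controls received, at the same concentration, an siRNA with no known human target, so that cells given both siRNAs received more siRNA in all if each was at that dose. Each of the 4 groups had 3 arrays, all groups share the line and the transfection reagent, and the sources used here do not give the time between transfection and harvest. No label states whether replicates are separate cultures, so p-values measure only how far these samples spread, which may be technical.

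Secretory and membrane proteins fold in the ER, and 3 membrane sensors respond when unfolded protein builds up there. IRE1 (gene ERN1) splices the mRNA of XBP1, PERK (EIF2AK3) phosphorylates the initiation factor eIF2, and ATF6 is cut to release a transcription factor. Phosphorylated eIF2 lowers translation in general and favours that of ATF4, a transcription factor that induces amino acid and one-carbon enzymes, while ATF6 and spliced XBP1 induce chaperones and the machinery that returns misfolded protein to the cytosol for degradation. Much of this regulation acts on splicing, cleavage, phosphorylation and translation, which these arrays do not measure.

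The targeted genes were lower in the libraries labelled for them. ETV6 was left at 22.6% of its control level with ETV6 siRNA and at 35.1% with double siRNA (limma, adjusted p = 7.48e-07 and 1.24e-06), and NFKB1 at 60.3% and 58.8% with NFKB1 and double siRNA (adjusted p = 0.00691 and 0.00165; 0.0524 for NFKB1 siRNA with only those 6 arrays in the fit). The log2 change of NFKB1 with NFKB1 siRNA was -0.73, and -0.46 without NFKB1 siRNA replicate 3, its lowest array. NFKB1 lay under the filter on low levels and was tested only because the targeted genes were exempt from it. Its mean log2 levels were 7.32, 7.81, 6.59 and 6.55 in control, ETV6, NFKB1 and double siRNA cells. With ETV6 siRNA it read 141.2% of control (limma, adjusted p = 0.104). With double siRNA the arrays stood apart from the other 9. Their median log2 levels were 8.34 to 8.38 against 8.08 to 8.28, the mean of their probe sets for poly-A control RNAs, spiked in at labelling, was 7.97 to 8.05 against 8.37 to 9.35, and the 3′ probe set of ACTB exceeded its 5′ probe set by 2.05 to 2.16 against 1.52 to 1.91. The same difference for GAPDH overlapped (0.46 to 0.51 against 0.37 to 0.54). The part of these array differences in the results below was not tested. Of 10 markers of the glioma and astrocyte lineage 8 were measured, GFAP, VIM, NES, FABP7, CD44, S100B, SOX2 and CHI3L1, all above the filter. With double siRNA NES was at 10.17 against 11.33 in control cells, GFAP at 12.97 against 13.51 and S100B at 8.86 against 8.48 (mean log2 levels). VIM, FABP7, CD44, SOX2 and CHI3L1 were at 14.52, 12.74, 13.24, 12.84 and 8.04 against 14.49, 12.79, 13.35, 12.74 and 8.20, while OLIG2 and AQP4 were not analysed here. Of 12 markers of other cell types 3 had a probe set and 1 was above the filter, the epithelial keratin KRT18, at 7.90, 8.05, 8.03 and 7.35 in control, ETV6, NFKB1 and double siRNA cells. Below the filter the neuronal gene SYT1 was at 6.96, 7.22, 6.28 and 7.78 and the myelin gene MBP at 6.73, 7.27, 6.40 and 7.45. The part of these markers in the results was not tested. In bulk RNA, fewer cells with a transcript and less of it per cell cannot be told apart.

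Some of the genes, but not most, carry one of 3 stress elements near their start site. The stretches below are shown because genes with the same element did not move the same way in these arrays. RefSeq promoters (GRCh38.p14, 250 bases before to 50 after each annotated start site, 35116 windows of 27305 genes) were matched by symbol for 36 of the 40 genes. The ER stress element, or ERSE, which reads CCAAT, 9 bases of any kind and CCACG and which ATF6 binds together with the CCAAT factor NF-Y, was searched on both strands. It occurred in the windows of 7 of these 36 genes (19.4%) against 25 of all 27305 (0.0916%): HSPA5, HSP90B1, CALR, CANX, PDIA6, CRELD2 and XBP1. The C/EBP-ATF response element, or CARE, TGATGNAA, which ATF4 binds with a C/EBP partner, occurred in 5 of 36 (13.9%) against 4.46% of all: ASNS, ATF3, PPP1R15B, HERPUD1 and CHAC1. The core TGACGTG of the unfolded protein response element occurred in HYOU1 alone (1 of 36, 2.78%, against 2.4% of all). No match overlapped another motif. A match is a description of these letters in this window and no more. The 40 genes were taken by name as genes of these responses, so a share above that of all promoters is no test of an element.

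The ERSE stretches are given 5′ to 3′ on the strand of the gene, with the element in capitals and 20 bases on each side. That of HSPA5 (chr9:125241371-125241429, minus strand) lies 66 bases before the start site, that of CANX (chr5:179698758-179698816, plus strand) 151 bases before it and that of PDIA6 (chr2:10812833-10812891, minus strand) 86 bases before it. XBP1 (chr22:28800583-28800641, minus strand) has its element 52 bases before the start. In CRELD2 (chr22:49918534-49918592, plus strand, 80 bases before) and CALR (chr19:12938364-12938422, plus strand, 225 bases before) it lies on the opposite strand, so that the printed letters begin with CGTGG and end with ATTGG. HSP90B1 has one copy on each strand, at chr12:103930196-103930254, plus strand and chr12:103930301-103930359, plus strand, 194 and 89 bases before its start.
HSPA5: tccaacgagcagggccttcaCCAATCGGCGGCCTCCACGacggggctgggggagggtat
CANX: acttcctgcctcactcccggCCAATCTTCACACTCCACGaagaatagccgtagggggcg
PDIA6: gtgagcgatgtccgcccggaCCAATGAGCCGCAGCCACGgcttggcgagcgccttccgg
HSP90B1, first copy: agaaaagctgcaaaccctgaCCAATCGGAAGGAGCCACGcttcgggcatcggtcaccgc
HSP90B1, second copy: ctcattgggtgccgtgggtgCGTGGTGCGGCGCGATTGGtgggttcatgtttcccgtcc
XBP1: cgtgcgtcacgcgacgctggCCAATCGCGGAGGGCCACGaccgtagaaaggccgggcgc
CRELD2: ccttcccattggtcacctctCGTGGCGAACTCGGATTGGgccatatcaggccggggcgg
CALR: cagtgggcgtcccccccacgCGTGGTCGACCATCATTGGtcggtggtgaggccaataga

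The CARE stretches, shown the same way, are those of ASNS (chr7:97872449-97872496, minus strand, 68 bases before the start), ATF3 (chr1:212565196-212565243, plus strand, 191 bases before), PPP1R15B (chr1:204412017-204412064, minus strand, 227 bases before) and HERPUD1 (chr16:56931946-56931993, plus strand, 176 bases before, on the opposite strand).
ASNS: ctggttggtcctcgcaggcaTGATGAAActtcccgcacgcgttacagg
ATF3: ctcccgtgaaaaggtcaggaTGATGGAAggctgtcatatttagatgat
PPP1R15B: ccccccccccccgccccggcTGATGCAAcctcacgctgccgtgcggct
HERPUD1: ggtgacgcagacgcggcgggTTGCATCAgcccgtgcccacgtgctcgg

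With ETV6 siRNA the ER stress and ATF4 genes moved little on the probe sets tested. The stress-induced inhibitor of mTORC1 SESN2, the BiP co-chaperone DNAJB9 and the ER-membrane degradation factor HERPUD1 rose, and the mitochondrial folate enzyme MTHFD2 and the serine synthesis enzyme PHGDH fell. These were 3 genes higher and 2 lower of 36 (13.9%), called at a Benjamini-Hochberg adjusted p under 0.05 over all genes in limma, where 10.7% of all tested genes were called, 4.38% higher and 6.28% lower. That share is near the background. The arrays of both groups did not overlap in 12 of 36 genes (33.3%, against 24.5% of all). The median log2 change was 0.05 for the 36 genes and 0.00 for all genes. MTHFD2 kept its call under all 23 alternatives tried. HERPUD1 lost it in 17, with any array left out except NFKB1 siRNA replicate 3, and DNAJB9 in 11, among them leaving out control replicates 1 or 2, ETV6 replicates 2 or 3, NFKB1 replicate 2 or any double siRNA array (adjusted p up to 0.183). PHGDH (-0.16 to -0.20 where the call was lost) lost it with each array brought to a common median (the median shift) and without control replicates 1 or 2 or any ETV6 array, and SESN2 without ETV6 replicate 1 (0.38, adjusted p = 0.0676). SESN2 also lost it as the mean of its probe sets (0.31, limma, adjusted p = 0.0502) and without both control replicate 3 and ETV6 replicate 2. PHGDH and SESN2 both lost it with only the groups compared (limma, adjusted p = 0.14 and 0.0559).

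With NFKB1 siRNA the transcription factors ATF3, XBP1 and ATF4 rose, and DDIT3, CEBPB and NUPR1 did not pass. Of the 6 amino acid and one-carbon enzymes PSAT1, MTHFD2 and ASNS fell, PSPH rose, and PHGDH and SHMT2 did not pass. The falls of MTHFD2 and ASNS were lost with the median shift (limma, adjusted p = 0.213 and 0.464). Among the 36 genes above the filter ATF3 rose most and DNAJC3, a co-chaperone reported to inhibit PERK, fell most. Of the 36 genes 7 rose (19.4%; 15.5% of all genes) and 11 fell (30.6%; 25.1% of all), 50% in all against 40.6%, and whether the genes differ from the rest of the array was not tested. The arrays did not overlap in 20 of 36 (55.6%, against 47.8% of all). The genes that rose were ATF3, PSPH, TRIB3, XBP1, ATF6, ATF4 and CRELD2, and those that fell were DNAJC3, SEL1L, EDEM1, EIF2AK3, PPP1R15B, PSAT1, CANX, ERO1A, MTHFD2, VLDLR and ASNS. ATF6 is counted by its brightest probe set only: its other 3 were lower, and the mean of its probe sets gave -0.57 (adjusted p = 0.000261). The median was 0.02, beside 0.01 for all genes. The split depended on the scaling of the arrays: 13 rose and 6 fell with the median shift, and 11 rose and 9 fell after quantile normalization, while all called genes went from 38.1% higher to 62.2% and 57.5%. Calls that held under all 23 alternatives were those of ATF3, TRIB3, DNAJC3, EDEM1, EIF2AK3, PPP1R15B and PSAT1.

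Double siRNA divided the genes into a rising and a falling set of larger changes. The degradation scaffold SEL1L, DNAJC3, DNAJB9, the lectin chaperone CANX and the sensor kinase EIF2AK3 rose, and the ATF4 target ASNS, the one-carbon enzyme SHMT2, PHGDH, the stress-induced chromatin protein NUPR1 and PSAT1 fell. In all 13 genes rose (36.1%) and 17 fell (47.2%), beside 31.9% and 49% of all genes, or 83.3% against 80.9% in both directions. So many genes of the array passed in this comparison that the count is no result about the ER stress genes. The arrays of the 2 groups did not overlap in 31 of the 36 genes, and in 84.3% of all genes. The median was -0.06, beside -0.13 for all genes. With the median shift the median of all genes moved to -0.24, and 9 rose and 19 fell. Calls of 24 of the 30 genes held under all 23 alternatives, and PDIA4, PDIA6, VLDLR and ATF3 lost theirs with that shift.

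**Figure D1:**
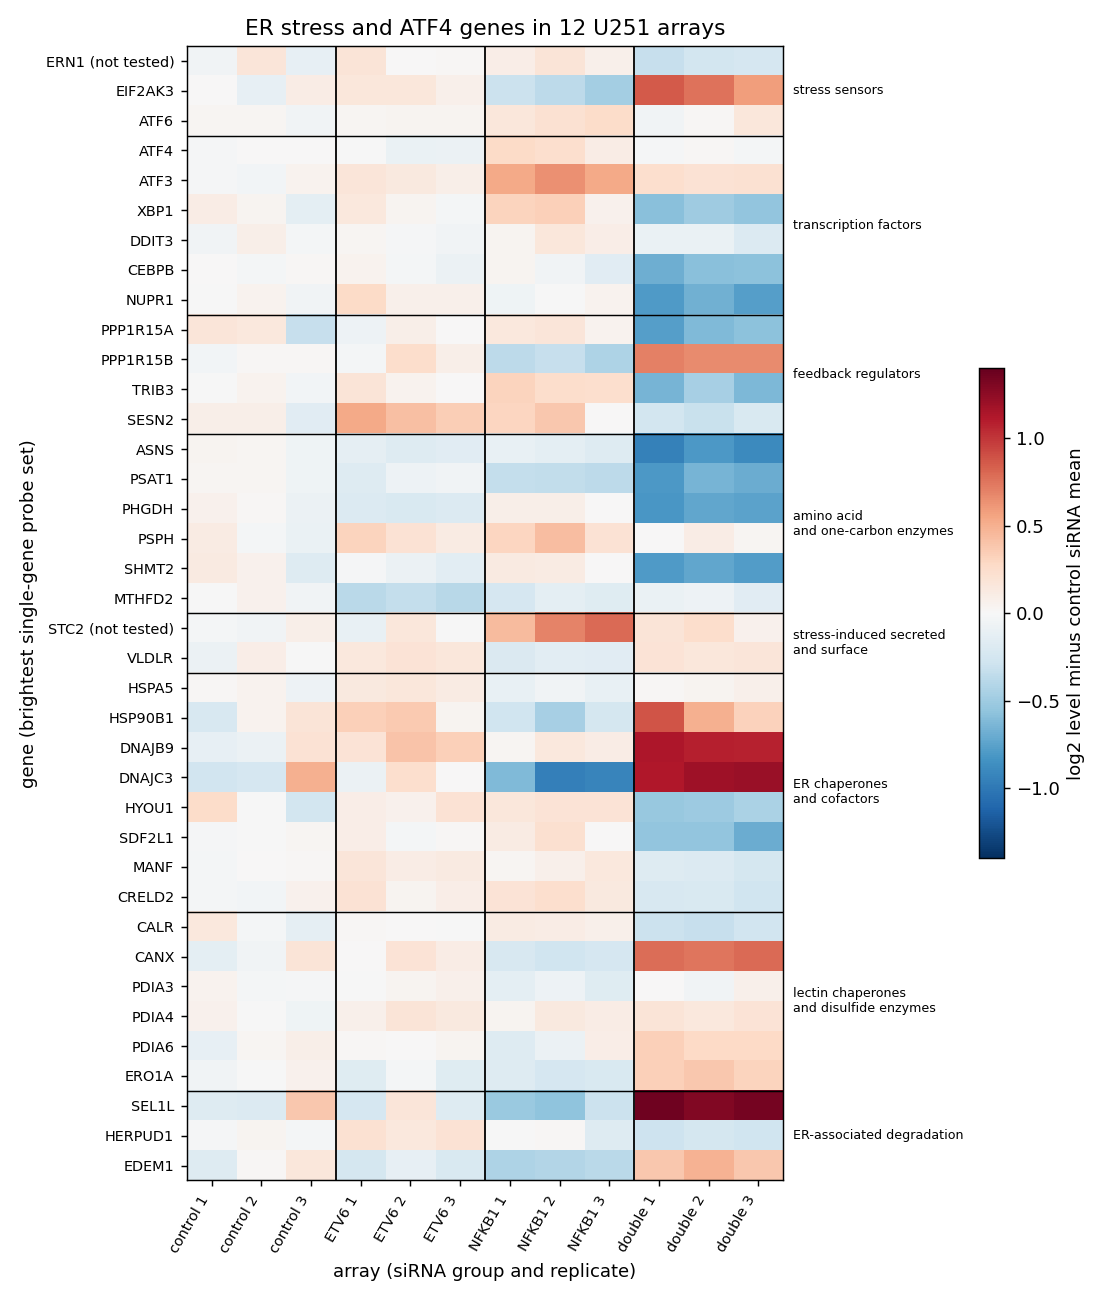
Level of each gene in each array minus its mean with control siRNA (log2, colour scale), with genes in rows by role and the 12 arrays in columns by siRNA group. The double siRNA arrays show the strongest colours in both directions, from SEL1L at 1.33 above the control mean to ASNS at 0.88 below it, and control siRNA replicate 3 is above the other controls in DNAJC3 and SEL1L.

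Among the sensors, EIF2AK3 fell with NFKB1 siRNA and rose with double siRNA. The values of single arrays that follow are log2 levels, and changes are log2 differences of group means from control with their standard error. EIF2AK3, the gene of the kinase PERK, read 8.85, 8.73 and 8.95 with control siRNA, 9.0, 9.01 and 8.92 with ETV6 siRNA, 8.55, 8.48 and 8.37 with NFKB1 siRNA and 9.71, 9.60 and 9.43 with double siRNA. The NFKB1 siRNA arrays lie below all others and the double siRNA arrays above all others. Against control it was at 0.13 ± 0.08 (SE, adjusted p = 0.374) with ETV6 siRNA, fell 1.30-fold with NFKB1 siRNA (-0.38 ± 0.08 SE, adjusted p = 0.00302) and rose 1.66-fold with double siRNA (0.73 ± 0.08 SE, adjusted p = 8.81e-06). ATF6 read 9.29, 9.29 and 9.22 with control siRNA, 9.30, 9.31 and 9.31 with ETV6 siRNA, 9.43, 9.48 and 9.53 with NFKB1 siRNA and 9.22, 9.28 and 9.43 with double siRNA on its brightest probe set. These values span a narrow range, with the NFKB1 siRNA arrays highest apart from double siRNA replicate 3, which overlaps them. The change was 0.21 ± 0.06 (SE, adjusted p = 0.0122) with NFKB1 siRNA and 0.04 ± 0.06 (SE, adjusted p = 0.513) with double siRNA. Its other 3 probe sets gave another picture: -0.61 to -1.10 with NFKB1 siRNA and 0.57 to 0.86 with double siRNA. With ETV6 siRNA they were at -0.34 to -0.45, beside 0.04 on the brightest. ATF6 therefore has no settled direction with either single siRNA. With double siRNA all its probe sets were above control, though the brightest did not pass. ERN1, under the filter, read 6.70, 6.91 and 6.63 with control siRNA, 6.93, 6.75 and 6.76 with ETV6 siRNA, 6.84, 6.93 and 6.82 with NFKB1 siRNA and 6.42, 6.49 and 6.52 with double siRNA. Its double siRNA arrays are below the other 9, and a fit without the filter gave -0.27 ± 0.08 (SE, adjusted p = 0.00774) against control.

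Of the 6 transcription factors measured, ATF3, XBP1 and ATF4 rose with NFKB1 siRNA, and with double siRNA 4 fell and ATF3 rose. These were 3 higher and none lower with NFKB1 siRNA, 1 higher and 4 lower with double siRNA, and none passed with ETV6 siRNA, beside 15.5% of all genes higher and 25.1% lower with NFKB1 siRNA and 31.9% and 49% with double siRNA. The 5 of 6 called with double siRNA (83.3%) are near the 80.9% of all genes. With the median shift 4 rose with NFKB1 siRNA, and none rose and 5 fell with double siRNA. ATF4, the translationally controlled activator, read 10.15, 10.17 and 10.17 with control siRNA, 10.16, 10.08 and 10.08 with ETV6 siRNA, 10.44, 10.40 and 10.27 with NFKB1 siRNA and 10.14, 10.18 and 10.14 with double siRNA. The NFKB1 siRNA arrays are above all others and the remaining groups overlap. Its change was 0.20 ± 0.05 (SE, adjusted p = 0.00942) with NFKB1 siRNA (adjusted p = 0.0627 with only those 6 arrays in the fit), -0.06 ± 0.05 (SE, adjusted p = 0.579) with ETV6 siRNA and -0.01 ± 0.05 (SE, adjusted p = 0.847) with double siRNA. ATF3, a factor induced by ATF4 and by many other stresses, carried a CARE in its promoter and read 8.76, 8.74 and 8.82 with control siRNA, 8.94, 8.91 and 8.86 with ETV6 siRNA, 9.30, 9.41 and 9.31 with NFKB1 siRNA and 9.0, 8.97 and 8.98 with double siRNA. Every treated array lies above every control array, and the NFKB1 siRNA arrays are the highest. ATF3 rose 1.48-fold with NFKB1 siRNA (0.57 ± 0.05 SE, adjusted p = 8.94e-06) and 1.16-fold with double siRNA (0.21 ± 0.05 SE, adjusted p = 0.00136), and was at 0.13 ± 0.05 (SE, adjusted p = 0.114) with ETV6 siRNA. Its rise with double siRNA was 0.11 (adjusted p = 0.0762) with the median shift.

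XBP1, whose mRNA is spliced by IRE1, read 8.83, 8.77 and 8.59 with control siRNA, 8.88, 8.77 and 8.71 with ETV6 siRNA, 9.05, 9.06 and 8.79 with NFKB1 siRNA and 8.15, 8.24 and 8.18 with double siRNA. Lowest are the double siRNA arrays, and NFKB1 siRNA replicate 3 lies within the control range. XBP1 fell 1.46-fold with double siRNA (-0.54 ± 0.08 SE, adjusted p = 9.86e-05), and its rise with NFKB1 siRNA (0.24 ± 0.08 SE, adjusted p = 0.0415) lost its call in 11 of 22 alternatives, among them without control replicates 2 or 3, ETV6 replicate 2, NFKB1 replicates 1 or 2 or any double siRNA array. The array probe set does not tell the spliced from the unspliced form apart. DDIT3, which encodes the proapoptotic factor CHOP, read 8.36, 8.49 and 8.38 with control siRNA, 8.43, 8.40 and 8.36 with ETV6 siRNA, 8.45, 8.57 and 8.5 with NFKB1 siRNA and 8.31, 8.32 and 8.22 with double siRNA. All groups lie close together, with the double siRNA arrays just below the others. It was at 0.10 ± 0.05 (SE, adjusted p = 0.167) with NFKB1 siRNA and -0.01 ± 0.05 (SE, adjusted p = 0.934) with ETV6 siRNA, and its fall with double siRNA (-0.13 ± 0.05 SE, adjusted p = 0.046) did not hold in 13 of 22 alternatives, among them without control replicate 2, NFKB1 replicate 3, any ETV6 array or any double siRNA array. NUPR1, a small stress-induced chromatin protein, read 9.68, 9.73 and 9.64 with control siRNA, 9.96, 9.76 and 9.75 with ETV6 siRNA, 9.63, 9.68 and 9.74 with NFKB1 siRNA and 8.89, 9.02 and 8.92 with double siRNA. The 9 other arrays are all above the double siRNA arrays. NUPR1 fell 1.67-fold with double siRNA (-0.74 ± 0.06 SE, adjusted p = 2.51e-06), as did CEBPB, a C/EBP factor, 1.53-fold (-0.61 ± 0.06 SE, adjusted p = 4.46e-06). Neither passed with a single siRNA (NUPR1 0.14 and -0.01, CEBPB -0.02 and -0.06 with ETV6 and NFKB1 siRNA).

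The feedback regulators included the pair of genes whose products direct protein phosphatase 1 to eIF2, and the 2 went opposite ways with double siRNA. PPP1R15B, the constitutive subunit, read 8.66, 8.72 and 8.72 with control siRNA, 8.67, 8.94 and 8.78 with ETV6 siRNA, 8.33, 8.37 and 8.26 with NFKB1 siRNA and 9.40, 9.36 and 9.36 with double siRNA. The NFKB1 siRNA arrays are below and the double siRNA arrays above all others. PPP1R15B fell 1.30-fold with NFKB1 siRNA (-0.38 ± 0.06 SE, adjusted p = 0.00087) and rose 1.60-fold with double siRNA (0.68 ± 0.06 SE, adjusted p = 4.02e-06). PPP1R15A, the stress-induced subunit GADD34, was at 7.80 ± 0.28 in control cells (SD, n = 3) and 7.14 ± 0.11 with double siRNA, a fall of 1.58-fold (-0.66 ± 0.11 SE, adjusted p = 0.000226). Its second probe set gave -0.62. TRIB3, a pseudokinase induced by ATF4 and CHOP, read 9.07, 9.12 and 9.05 with control siRNA, 9.26, 9.13 and 9.09 with ETV6 siRNA, 9.39, 9.33 and 9.32 with NFKB1 siRNA and 8.42, 8.62 and 8.45 with double siRNA. The NFKB1 siRNA arrays are above all others and the double siRNA arrays below all others. TRIB3 rose 1.20-fold with NFKB1 siRNA (0.27 ± 0.06 SE, adjusted p = 0.0063) and fell 1.5-fold with double siRNA (-0.58 ± 0.06 SE, adjusted p = 8.61e-06). SESN2 read 7.76, 7.76 and 7.52 with control siRNA, 8.21, 8.10 and 8.03 with ETV6 siRNA, 7.98, 8.05 and 7.69 with NFKB1 siRNA and 7.42, 7.36 and 7.47 with double siRNA. The ETV6 siRNA arrays are above the controls, the double siRNA arrays below them, and the NFKB1 siRNA arrays overlap with the controls. It rose 1.35-fold with ETV6 siRNA (0.43 ± 0.10 SE, adjusted p = 0.0146), was at 0.23 ± 0.10 (SE, adjusted p = 0.0802) with NFKB1 siRNA and fell with double siRNA (-0.26 ± 0.10 SE, adjusted p = 0.0249), a call lost without control replicates 1 or 2 or double replicates 1 or 2 (adjusted p 0.055 to 0.0851). Its second, dimmer probe set gave 0.20, -0.02 and -0.60 with ETV6, NFKB1 and double siRNA.

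Among the amino acid and one-carbon enzymes, ASNS, SHMT2, PHGDH and PSAT1 fell with double siRNA. These were 4 of 6 (66.7%) and none rose, where 49% of all genes fell and 80.9% were called, so the count does not set the enzymes apart (5 fell with the median shift or after quantile normalization), with a median of -0.74 beside -0.13 for all genes. ASNS, the asparagine synthetase and an ATF4 target with a CARE in its promoter, read 11.38, 11.37 and 11.28 with control siRNA, 11.22, 11.17 and 11.19 with ETV6 siRNA, 11.25, 11.20 and 11.16 with NFKB1 siRNA and 10.40, 10.55 and 10.46 with double siRNA. The double siRNA arrays are below the other 9 by more than the whole range of those 9. ASNS fell 1.84-fold (-0.88 ± 0.05 SE, adjusted p = 9.7e-07), against -0.15 ± 0.05 (SE, adjusted p = 0.0827) with ETV6 siRNA and -0.14 ± 0.05 (SE, adjusted p = 0.0437) with NFKB1 siRNA, the last a call lost in 14 of 23 alternatives, both other scalings among them, and without any control or ETV6 array except control replicate 3, any NFKB1 array or double replicate 3. The serine pathway gene PHGDH read 12.05, 12.002 and 11.90 with control siRNA, 11.79, 11.77 and 11.80 with ETV6 siRNA, 12.06, 12.07 and 11.98 with NFKB1 siRNA and 11.17, 11.25 and 11.23 with double siRNA. Lowest are the double siRNA arrays and next the ETV6 siRNA arrays. It fell 1.70-fold with double siRNA (-0.76 ± 0.05 SE, adjusted p = 1.07e-06) and 1.15-fold with ETV6 siRNA (-0.20 ± 0.05 SE, adjusted p = 0.0291). SHMT2, the mitochondrial serine hydroxymethyltransferase, read 11.23, 11.17 and 10.92 with control siRNA, 11.09, 11.02 and 10.96 with ETV6 siRNA, 11.23, 11.22 and 11.11 with NFKB1 siRNA and 10.31, 10.38 and 10.33 with double siRNA. Only the double siRNA arrays leave the control range downward. SHMT2 fell 1.70-fold there (-0.77 ± 0.08 SE, adjusted p = 5e-06), and its other 2 probe sets gave -0.87 and -0.76.

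PSAT1, the aminotransferase of serine synthesis, fell with NFKB1 siRNA (-0.35 ± 0.05 SE, adjusted p = 0.000479) and with double siRNA (-0.72 ± 0.05 SE, adjusted p = 1.48e-06). A second, dimmer probe set of PSAT1 gave smaller changes, -0.10 with NFKB1 siRNA and -0.24 with double siRNA. The next enzyme, the phosphatase PSPH, went the other way: it rose with NFKB1 siRNA (0.31 ± 0.08 SE, adjusted p = 0.00685; 0.19, adjusted p = 0.125, as the mean of its 3 probe sets) and was at 0.04 ± 0.08 (SE, adjusted p = 0.623) with double siRNA. Its other probe sets gave 0.11 and -0.67 with double siRNA. MTHFD2 read 11.24, 11.31 and 11.20 with control siRNA, 10.87, 10.92 and 10.86 with ETV6 siRNA, 11.01, 11.11 and 11.08 with NFKB1 siRNA and 11.15, 11.18 and 11.09 with double siRNA. All treated arrays lie below all controls, and the ETV6 siRNA arrays are lowest. MTHFD2 fell 1.29-fold with ETV6 siRNA (-0.37 ± 0.05 SE, adjusted p = 0.00113) and by less with NFKB1 siRNA (-0.18 ± 0.05 SE, adjusted p = 0.0119), a call lost with the median shift (adjusted p = 0.213) and without NFKB1 replicate 1 (adjusted p = 0.0513), and was at -0.11 ± 0.05 (SE, adjusted p = 0.0576) with double siRNA. It was the only one of these 6 enzymes called higher with double siRNA than with ETV6 siRNA (0.26 ± 0.05 SE, adjusted p = 0.000354).

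VLDLR and STC2 belong to the ATF4 and PERK targets that act at the cell surface or outside it. VLDLR, a lipoprotein receptor, was at 0.17 ± 0.05 (SE, adjusted p = 0.0553) with ETV6 siRNA, fell with NFKB1 siRNA (-0.17 ± 0.05 SE, adjusted p = 0.0185) and rose with double siRNA (0.17 ± 0.05 SE, adjusted p = 0.00664). The fall was lost with both other scalings and without control replicate 2 or NFKB1 replicate 1, and the rise was 0.07 (adjusted p = 0.349) with the median shift. STC2, the secreted glycoprotein stanniocalcin 2, lay under the filter and read 6.81, 6.79 and 6.91 with control siRNA, 6.73, 7.0 and 6.84 with ETV6 siRNA, 7.29, 7.53 and 7.63 with NFKB1 siRNA and 7.02, 7.08 and 6.90 with double siRNA. Its NFKB1 siRNA arrays are above all others. Without the filter its change was 0.64 ± 0.10 (SE, adjusted p = 0.000531) with NFKB1 siRNA, and its second probe set gave 0.51.

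**Figure D2:**
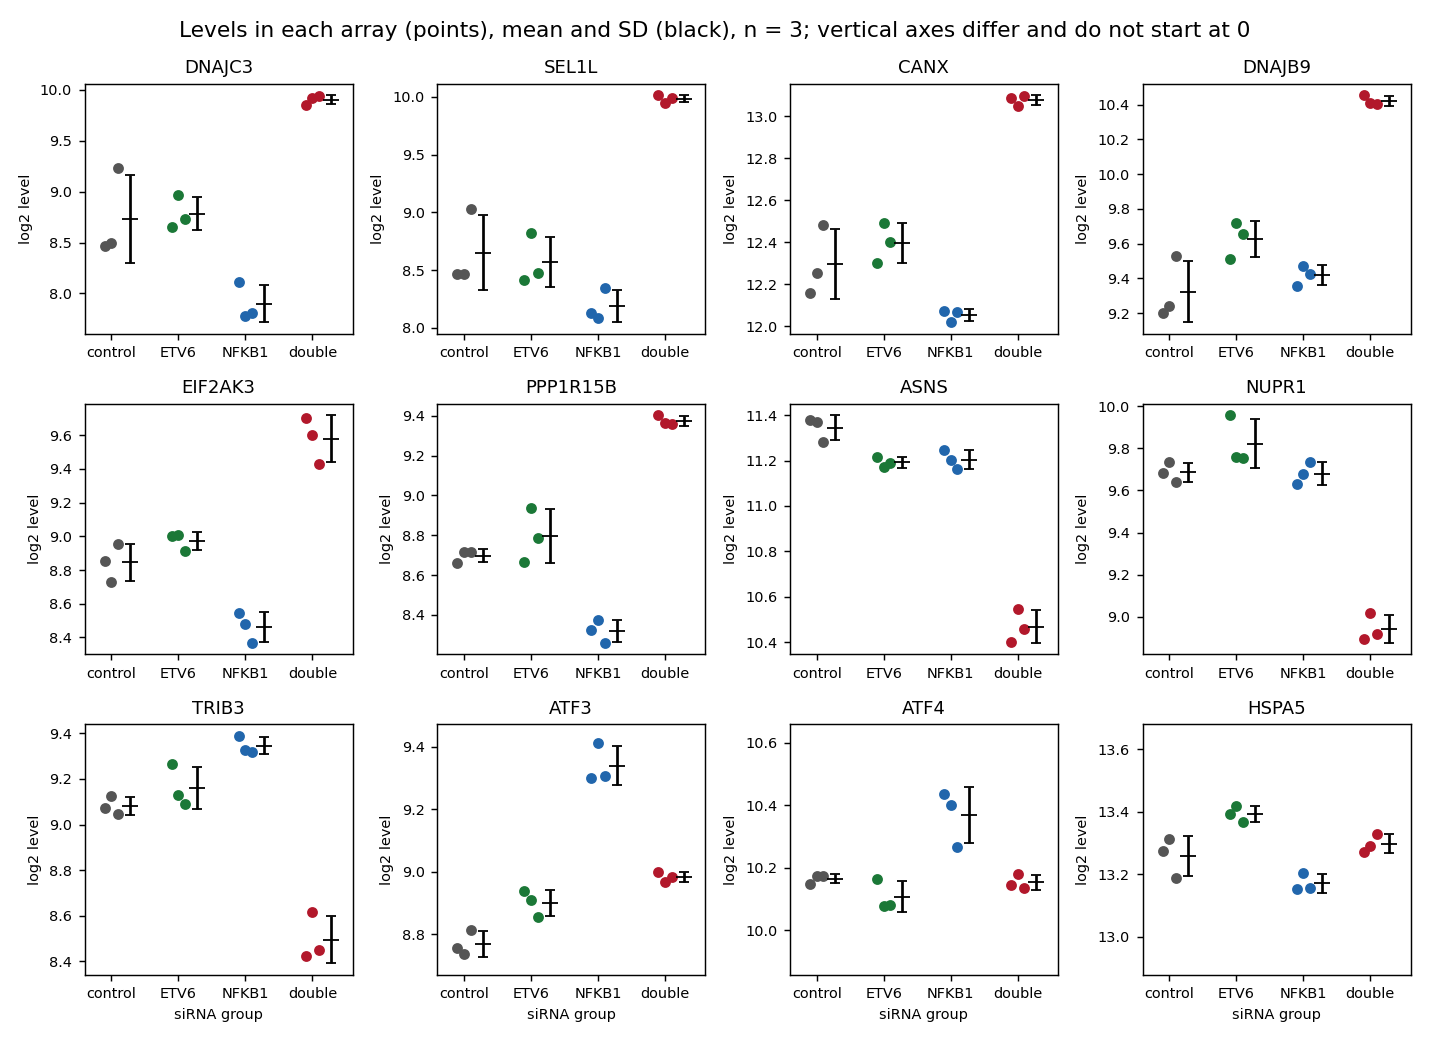
Log2 level of 12 genes in each array (points, coloured by siRNA group), with the mean and SD of each group in black (n = 3); vertical axes differ between panels. DNAJC3, SEL1L, CANX, EIF2AK3 and PPP1R15B are lowest with NFKB1 siRNA and highest with double siRNA, TRIB3 the reverse, and HSPA5 stays between 13.15 and 13.42 in all 12 arrays.

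The chaperones moved in both directions. HSPA5, which encodes BiP, the main ER chaperone and the usual readout of ER stress, read 13.27, 13.31 and 13.19 with control siRNA, 13.39, 13.42 and 13.37 with ETV6 siRNA, 13.15, 13.21 and 13.16 with NFKB1 siRNA and 13.27, 13.29 and 13.33 with double siRNA. The ETV6 siRNA arrays are slightly above the controls and the other groups overlap with them. Its changes were 0.14 ± 0.05 (SE, adjusted p = 0.091), -0.09 ± 0.05 (SE, adjusted p = 0.149) and 0.04 ± 0.05 (SE, adjusted p = 0.432) with ETV6, NFKB1 and double siRNA, none of which passed, which does not show that its level was the same. A second, dimmer probe set of HSPA5 gave 0.13, -0.24 and -0.12 with ETV6, NFKB1 and double siRNA. Between the single knock-downs HSPA5 was 1.17-fold higher with ETV6 siRNA (0.22 ± 0.05 SE, adjusted p = 0.00372), a call lost with the median shift (adjusted p = 0.07). Of the 8 chaperones and cofactors 3 rose and 4 fell with double siRNA, under all 3 scalings, or 87.5% called beside 80.9% of all genes.

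DNAJB9, an ER-resident BiP co-chaperone, read 9.20, 9.24 and 9.53 with control siRNA, 9.51, 9.72 and 9.66 with ETV6 siRNA, 9.36, 9.47 and 9.43 with NFKB1 siRNA and 10.46, 10.41 and 10.40 with double siRNA. All 3 double siRNA arrays lie above the other 9. DNAJB9 rose 2.14-fold with double siRNA (1.10 ± 0.08 SE, adjusted p = 1.48e-06) and 1.24-fold with ETV6 siRNA (0.31 ± 0.08 SE, adjusted p = 0.0362), and was at 0.10 ± 0.08 (SE, adjusted p = 0.372) with NFKB1 siRNA. DNAJC3 read 8.47, 8.5 and 9.23 with control siRNA, 8.65, 8.97 and 8.74 with ETV6 siRNA, 8.11, 7.78 and 7.81 with NFKB1 siRNA and 9.85, 9.92 and 9.94 with double siRNA. Control replicate 3 stands well above the other controls, yet no NFKB1 siRNA array reaches a control array and no double siRNA array falls to one. DNAJC3 fell 1.78-fold with NFKB1 siRNA (-0.83 ± 0.18 SE, adjusted p = 0.00325) and rose 2.25-fold with double siRNA (1.17 ± 0.18 SE, adjusted p = 7.84e-05). Without control replicate 3 the changes were -0.58 (adjusted p = 0.0013) and 1.42 (adjusted p = 2.37e-07). HSP90B1, the ER form of HSP90, read 9.79, 10.07 and 10.20 with control siRNA, 10.35, 10.39 and 10.05 with ETV6 siRNA, 9.74, 9.56 and 9.77 with NFKB1 siRNA and 10.90, 10.52 and 10.34 with double siRNA on a probe set of a class that can cross-hybridize. Every double siRNA array is above every control array, and the lowest of them lies within the range of the ETV6 siRNA arrays. It rose 1.48-fold with double siRNA (0.57 ± 0.15 SE, adjusted p = 0.00368), and 3 further probe sets, 2 of them shared with another gene, gave 0.47 to 0.96.

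The other cofactors fell with double siRNA. HYOU1, a BiP nucleotide exchange factor, was at 11.60 ± 0.26 in control cells and 11.10 ± 0.05 with double siRNA (SD, n = 3), a change of -0.50 ± 0.10 (SE, adjusted p = 0.000713). SDF2L1, a partner of the BiP co-chaperones, was at 9.35 ± 0.02 and 8.75 ± 0.08 (-0.60 ± 0.06 SE, adjusted p = 7.69e-06). MANF, a secreted ER protein, changed by -0.21 ± 0.05 (SE, adjusted p = 0.0016) and CRELD2, an ER disulfide-related protein that is induced with it, by -0.24 ± 0.05 (SE, adjusted p = 0.00142). CRELD2 rose with NFKB1 siRNA (0.19 ± 0.05 SE, adjusted p = 0.0189), a call lost without control replicate 2 or NFKB1 replicates 1 or 2, and MANF was at 0.08 ± 0.05 (SE, adjusted p = 0.169) there. In each of these 4 genes the double siRNA arrays did not overlap with the controls, as was so for 84.3% of all tested genes.

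The calnexin and calreticulin pair, which hold glycoproteins until they fold, parted with double siRNA. CANX read 12.16, 12.25 and 12.48 with control siRNA, 12.30, 12.49 and 12.40 with ETV6 siRNA, 12.07, 12.02 and 12.07 with NFKB1 siRNA and 13.09, 13.05 and 13.10 with double siRNA. The double siRNA arrays are above and the NFKB1 siRNA arrays below all others. CANX rose 1.72-fold with double siRNA (0.78 ± 0.08 SE, adjusted p = 4.83e-06), and its other 3 probe sets gave 0.79 to 1.03. Its fall with NFKB1 siRNA (-0.25 ± 0.08 SE, adjusted p = 0.0241) was -0.15 (adjusted p = 0.0646) without control replicate 3 and was also lost without NFKB1 replicates 1 or 2 and with the median shift. CALR fell with double siRNA (-0.30 ± 0.06 SE, adjusted p = 0.000767), and its other probe sets gave -0.43 and -0.79. The tested probe sets of CALR and PDIA6, like that of HSP90B1, are of the class that can cross-hybridize. Of the disulfide isomerases PDIA6 was at 0.29 ± 0.07 (SE, adjusted p = 0.00226) with double siRNA and PDIA4 at 0.17 ± 0.05 (SE, adjusted p = 0.00729), both lost with the median shift (0.18 and 0.06), while PDIA3 was at 0.01 ± 0.05 (SE, adjusted p = 0.84). ERO1A, the oxidase that recharges the isomerases, fell with NFKB1 siRNA (-0.21 ± 0.05 SE, adjusted p = 0.00911; -0.12, adjusted p = 0.0897, with the median shift) and rose with double siRNA (0.34 ± 0.05 SE, adjusted p = 0.000112). None of these 6 genes passed with ETV6 siRNA.

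In ER-associated degradation, SEL1L had the largest change of all 36 genes with double siRNA. SEL1L, the scaffold of the HRD1 ubiquitin ligase, read 8.47, 8.46 and 9.03 with control siRNA, 8.41, 8.82 and 8.48 with ETV6 siRNA, 8.13, 8.09 and 8.35 with NFKB1 siRNA and 10.01, 9.95 and 9.99 with double siRNA. Control replicate 3 and ETV6 replicate 2 are above the others of their groups, and all double siRNA arrays are above both. SEL1L rose 2.52-fold with double siRNA (1.33 ± 0.15 SE, adjusted p = 1.02e-05), or by 1.52 without control replicate 3 (adjusted p = 1.87e-07). Its fall with NFKB1 siRNA (-0.47 ± 0.15 SE, adjusted p = 0.0262) was -0.28 (adjusted p = 0.0663) without control replicate 3 and was also lost without NFKB1 replicates 1 or 2. EDEM1, a lectin that targets glycoproteins for degradation, read 8.95, 9.15 and 9.28 with control siRNA, 8.89, 9.02 and 8.92 with ETV6 siRNA, 8.70, 8.72 and 8.75 with NFKB1 siRNA and 9.50, 9.61 and 9.50 with double siRNA. The NFKB1 siRNA arrays are lowest and the double siRNA arrays highest. EDEM1 fell 1.32-fold with NFKB1 siRNA (-0.41 ± 0.08 SE, adjusted p = 0.00157) and rose 1.33-fold with double siRNA (0.41 ± 0.08 SE, adjusted p = 0.000356). HERPUD1, which carries a CARE and is induced by both ATF6 and ATF4, read 11.42, 11.47 and 11.41 with control siRNA, 11.65, 11.58 and 11.63 with ETV6 siRNA, 11.42, 11.45 and 11.25 with NFKB1 siRNA and 11.15, 11.18 and 11.15 with double siRNA. The ETV6 siRNA arrays are above and the double siRNA arrays below the controls. It fell 1.21-fold with double siRNA (-0.27 ± 0.06 SE, adjusted p = 0.000705) and rose 1.14-fold with ETV6 siRNA (0.19 ± 0.06 SE, adjusted p = 0.0497).

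**Figure D3:**
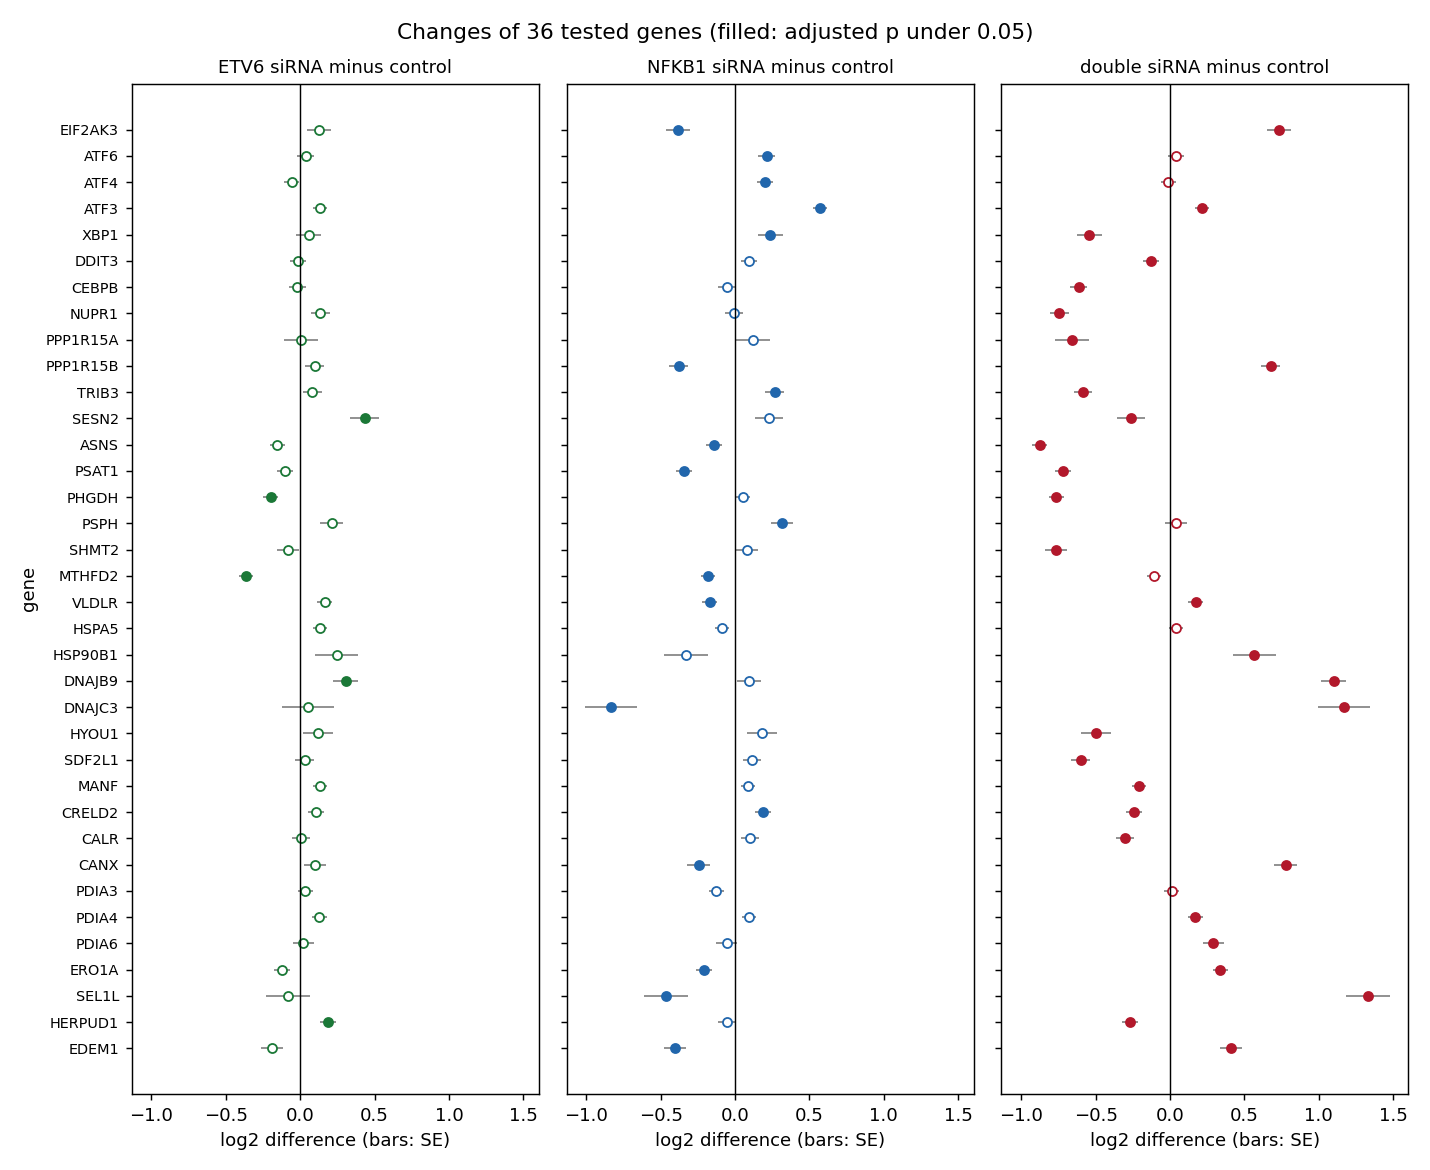
Log2 difference from control siRNA of the 36 tested genes, in the order of their roles, for ETV6, NFKB1 and double siRNA; bars are standard errors and filled points have an adjusted p under 0.05. Filled points number 5, 18 and 30 from left to right, and those of double siRNA reach from -0.88 (ASNS) to 1.33 (SEL1L).

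Genes with the same promoter element differed in direction. With double siRNA, of the 7 genes with an ERSE, HSP90B1, CANX and PDIA6 rose (PDIA6 not with the median shift), XBP1, CRELD2 and CALR fell, and HSPA5 did not pass. Of the 4 measured genes with a CARE, ATF3 (not with the median shift) and PPP1R15B rose and ASNS and HERPUD1 fell. HYOU1, the gene with the core of the unfolded protein response element, fell. Of all tested genes 31.9% rose and 49% fell with double siRNA, so these counts do not set the genes with an element apart. With NFKB1 siRNA the ERSE genes XBP1 and CRELD2 rose, CANX fell and the other 4 did not pass, where 15.5% of all genes rose and 25.1% fell. These calls were lost in 11 of 22 alternatives for XBP1, 4 of 23 for CRELD2 and 5 of 23 for CANX, there also with the median shift.

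Comparisons between the siRNA groups use the control arrays only for the shared estimate of the spread. Between double and NFKB1 siRNA 13 of 36 genes were higher and 21 lower (94.4% called, against 89.1% of all genes, 37.7% higher and 51.4% lower), and the arrays did not overlap in 34 (94.4%, against 90.8% of all). DNAJC3 was 4.01-fold higher with double siRNA (2.00 ± 0.18 SE, adjusted p = 8.01e-07), SEL1L 3.48-fold (1.80 ± 0.15 SE, adjusted p = 5.67e-07), and EIF2AK3, PPP1R15B, CANX and DNAJB9 differed by 1.12, 1.05, 1.02 and 1.01. TRIB3 (-0.85), SHMT2 (-0.85), PHGDH (-0.82) and XBP1 (-0.78) were lower. HSPA5 and PDIA3, at 0.13 and 0.14, turned to -0.07 and -0.06 with the median shift, and both lost their calls without NFKB1 replicate 1 or double replicate 3, PDIA3 also without NFKB1 replicate 3. Between double and ETV6 siRNA 10 were higher and 16 lower (72.2%, against 86.2% of all genes, 34.9% higher and 51.2% lower), and the arrays did not overlap in 30 (83.3%, against 90% of all). Furthest above were SEL1L at 1.42 ± 0.15 and DNAJC3 at 1.12 ± 0.18, and furthest below NUPR1 at -0.88 ± 0.06 and ASNS at -0.72 ± 0.05 (SE). In both comparisons the median of all genes depended on the scaling: with the median shift the median of all genes moved from -0.15 to -0.27 against ETV6 siRNA and from -0.16 to -0.36 against NFKB1 siRNA.

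Set directly against each other, the single knock-downs differed in 17 of 36 genes (47.2%, against 34.9% of all genes), 11 higher and 6 lower with ETV6 siRNA (21.8% and 13.1% of all genes), and their arrays did not overlap in 24 (66.7%, against 52.8% of all). With the median shift 7 were higher and 12 lower, and all called genes went from 62.6% to 37.6% higher. DNAJC3 was 1.85-fold higher with ETV6 than with NFKB1 siRNA (0.88 ± 0.18 SE, adjusted p = 0.00289), HSP90B1 1.49-fold (0.57 ± 0.15 SE, adjusted p = 0.0118; 0.51, adjusted p = 0.0521, without ETV6 replicate 2 and 0.32, adjusted p = 0.229, as the mean of its probe sets), EIF2AK3 1.42-fold (0.51 ± 0.08 SE, adjusted p = 0.000663) and PPP1R15B 1.39-fold (0.48 ± 0.06 SE, adjusted p = 0.000266). ATF3 was 1.36-fold lower (-0.44 ± 0.05 SE, adjusted p = 5.75e-05) and ATF4 1.20-fold lower (-0.26 ± 0.05 SE, adjusted p = 0.00293). The test of whether the effects add (the interaction, the double siRNA effect less both single effects) passed in 32 of 36 genes, 12 above and 20 below 0 (88.9%, against 86.3% of all genes, 36.5% above and 49.8% below).

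Other genes of the same pathways, from a list of 103 that holds none of the 40, were measured for 86 and tested for 77. With ETV6 siRNA 4 rose and 2 fell (7.79%, against 10.7% of all genes), among them the amino acid transporter gene SLC7A5 at 0.31 ± 0.06 and the stress gene GADD45A at 0.21 ± 0.05, both higher, and UGGT1, the folding sensor of the calnexin cycle, at -0.23 ± 0.05 (SE). With NFKB1 siRNA 16 rose and 13 fell (37.7%, against 40.6%). SEC63, a translocon component with a BiP-recruiting domain, fell 1.90-fold (-0.93 ± 0.06 SE, adjusted p = 2.99e-06), UGGT1 fell 1.52-fold (-0.60 ± 0.05 SE, adjusted p = 1.43e-05), and DDIT4, an ATF4-induced inhibitor of mTORC1, rose 1.43-fold (0.51 ± 0.05 SE, adjusted p = 2.35e-05). HMOX1, the heme oxygenase gene, was the gene of this list with the smallest adjusted p in both comparisons (1.36 ± 0.05 and 1.15 ± 0.05). With double siRNA 27 rose and 35 fell (80.5%, against 80.9%). EIF2AK4, which encodes the amino acid sensor kinase GCN2, rose 1.79-fold (0.84 ± 0.07 SE, adjusted p = 2.19e-06) and NIBAN1, an ATF4-induced stress gene, 1.43-fold (0.51 ± 0.04 SE, adjusted p = 2.24e-06), while WFS1, an ER membrane protein, fell 1.54-fold (-0.62 ± 0.05 SE, adjusted p = 1.93e-06) and the arginine transporter gene SLC7A1 1.59-fold (-0.67 ± 0.06 SE, adjusted p = 2.26e-06).

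For called genes, the probe sets of a gene mostly, but not always, gave the same direction. Of the 38 genes 18 had over 1 probe set of their own. For double siRNA 13 of the called genes were among them, and in 12 all probe sets had the sign of the one tested, the exception being PDIA4 (0.17 and -0.08). For NFKB1 siRNA the same held for 5 of 7, the exceptions being ATF6 and PSPH. Called or not, probe sets differed in sign with NFKB1 siRNA in ATF6, PPP1R15A, SESN2, PSPH, DNAJB9, CALR and PDIA4. With ETV6 siRNA they did so in ATF6, PPP1R15A, PSAT1, HSP90B1, DNAJC3, ERO1A and SEL1L, none of which was called. With double siRNA they did so in PSPH, STC2, HSPA5 and PDIA4. PDIA3, not called with double siRNA at 0.01, read 0.54 and 0.47 on its other probe sets. The probe sets of ERO1A ran from 0.13 to 0.89 with double siRNA and from -0.87 to -0.21 with NFKB1 siRNA.

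**Figure D4:**
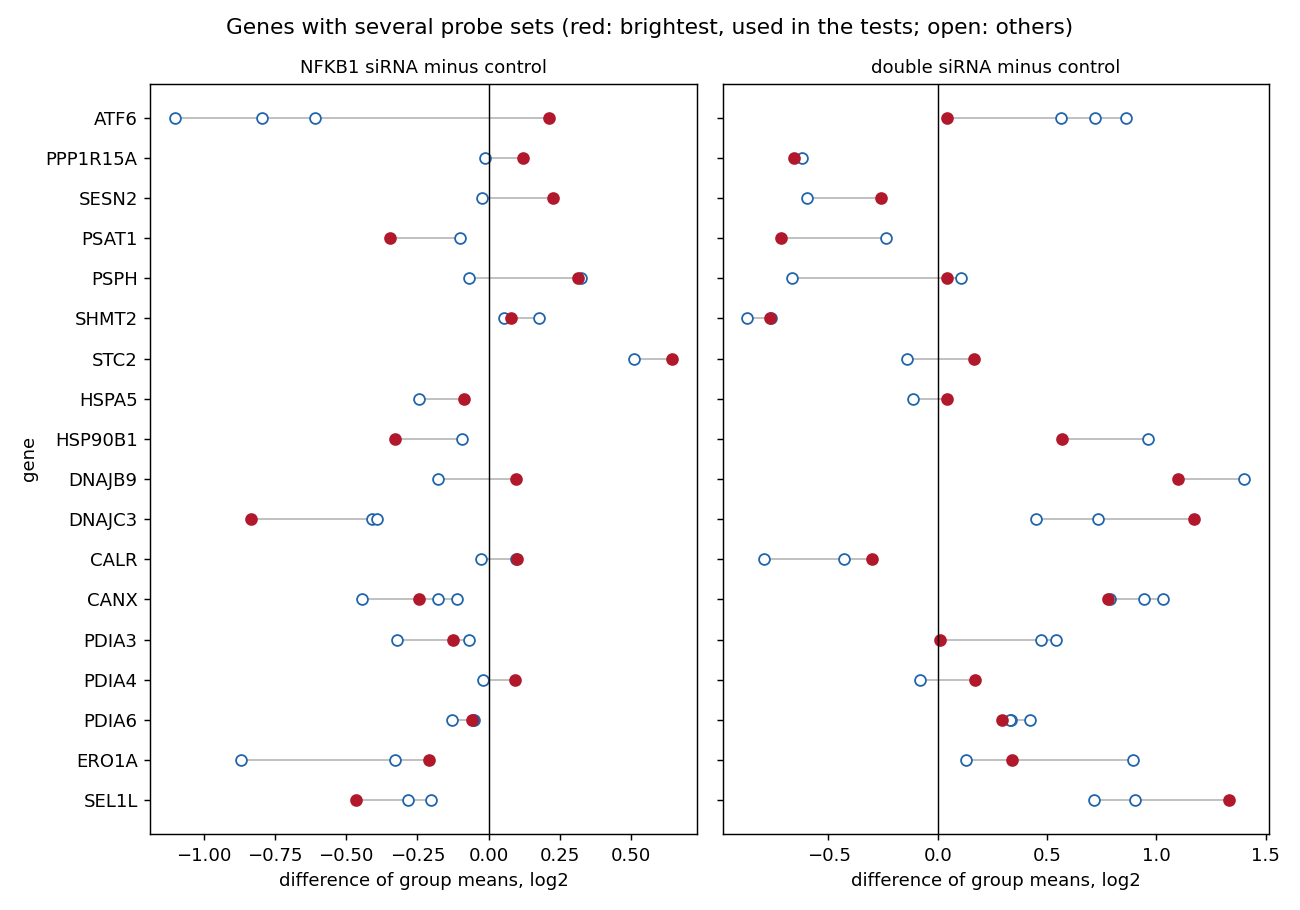
Difference from control siRNA (log2, group means) on every single-gene probe set of the 18 genes that have several, for NFKB1 siRNA and double siRNA; red points are the brightest probe set, used in the tests, and open points the others. ATF6 spans both sides of 0 with NFKB1 siRNA, from -1.10 to 0.21, while the 3 probe sets of SEL1L and the 4 of CANX lie on the same side in both comparisons.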

How the data were processed

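Total RNA of U251 cells was labelled with biotin and hybridized to Affymetrix GeneChip arrays, 1 per sample, per the labels' protocols. The authors deposited log2 levels of 19520 probe sets; how background, summarization and normalization were handled, and why these probe sets, is not stated in these sources. Genes were named through the platform's probe table, where 17319 probe sets named 1 gene, 857 several and 1344 none; the Entrez identifiers of the 38 measured genes matched RefSeq. The 40 genes, their roles and the list of other pathway genes were chosen with earlier results of these data known.

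The brightest probe set per gene was kept, and genes averaging below the 25th percentile were dropped, except ETV6 and NFKB1. One limma 3.58.1 model (R 4.3.3) estimated each group mean from all 12 arrays (8 residual and 3.41 prior degrees of freedom). Tests were two-sided, with Benjamini-Hochberg adjustment over the 7760 genes of each of 7 comparisons and a threshold of 0.05. No exact permutation test was used, since groups of 3 cannot give a p under 0.1. The number of arrays limits the precision. The rule for named genes was that any of the 40 may be named, with levels in every array for those with the 6 largest called changes in a comparison and for 10 central genes, and that up to 4 other pathway genes with the smallest adjusted p are named per comparison. No pair of arrays held identical values (0 of 66), and 0 columns of values were unused.

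Alternatives were 2 other scalings, no filter or one at the 50th percentile, averaging the probe sets of a gene, testing each probe set separately, array weights, trended and robust variances, a replicate block, only the groups compared, and leaving out each array. Omitting control replicate 3 together with ETV6 replicate 2 was added after seeing the data. With 1 array left out a group has 2, whose spread is pooled over the groups.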

Additional observations from a re-analysis of the deposited data

Results flagged for a closer look

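Whether the effect of one siRNA differs in the presence of the other was tested with the interaction, double minus ETV6 minus NFKB1 plus control, on the log2 scale. It passed for 32 of 36 genes (limma, adjusted p between 5.57e-06 and 0.0325, SE 0.07 to 0.25), and for 86.3% of all tested genes, so that a pass does not set these genes apart. It rests on the double siRNA arrays, which also differed in spike-in level and array median. The part of that difference was not tested. The median interaction was -0.24 for the 36 genes and -0.18 for all genes, so the smallest values below 0 are near that of a typical gene. With the median shift these medians were -0.45 and -0.39, and 10 of the genes passed above 0 and 23 below.

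Above the sum of the single effects were DNAJC3 at 1.95, SEL1L at 1.88, EDEM1 at 1.00, EIF2AK3 at 0.99, PPP1R15B at 0.96, CANX at 0.92, DNAJB9 at 0.70, ERO1A at 0.67, HSP90B1 at 0.65, MTHFD2 at 0.44, PDIA6 at 0.33 and VLDLR at 0.18. With the median shift PDIA6 was at 0.12 (limma, adjusted p = 0.362). VLDLR lost its call in 7 of 22 alternatives and changed sign in 1. The genes above the sum include those of PERK, of the co-chaperone DNAJC3 and of the constitutive eIF2 phosphatase subunit. The stress-induced subunit PPP1R15A lay below the sum, as did TRIB3, DDIT3 and ATF3.

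Below it, among regulators, were TRIB3 at -0.93, SESN2 at -0.92, NUPR1 at -0.87, XBP1 at -0.84, PPP1R15A at -0.78, CEBPB at -0.54, ATF3 at -0.49, DDIT3 at -0.21 and ATF6 at -0.21. The direction of ATF6 turned on its other 3 probe sets (1.58 to 2.27) and with the mean of all 4 (1.41, adjusted p = 2.68e-06). Calls of DDIT3 and ATF6 were lost in 4 of 21 and 8 of 22 alternatives. Among enzymes the values were -0.76 for SHMT2, -0.62 for PHGDH, -0.58 for ASNS, -0.48 for PSPH and -0.27 for PSAT1. For ER cofactors and degradation genes they were -0.80 for HYOU1, -0.74 for SDF2L1, -0.54 for CRELD2, -0.42 for MANF, -0.40 for CALR and -0.40 for HERPUD1.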

How the results depend on the processing

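Over 23 alternatives (22 for the interaction), calls of single genes held in every one for 1 of 5 genes with ETV6 siRNA, 7 of 18 with NFKB1 siRNA, 24 of 30 with double siRNA, 25 of 26 between double and ETV6 siRNA, 30 of 34 between double and NFKB1 siRNA, 9 of 17 between the single knock-downs and 28 of 32 for the interaction. Signs turned for ATF6 with the mean of its probe sets (-0.573 with NFKB1 siRNA, 1.121 for double against NFKB1, 0.283 for ETV6 against NFKB1 and 1.411 for the interaction), and with the median shift for HSPA5 (-0.07) and PDIA3 (-0.06) in double against NFKB1 siRNA and for VLDLR in the interaction (-0.029). NFKB1 itself stayed at -0.729 with only the groups compared (adjusted p = 0.0524) and was at -0.462 without NFKB1 replicate 3.

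Counts of the 36 genes moved by over 1.5 times in 3 comparisons. With ETV6 siRNA 3 were higher: 7 with quantile normalization, 1 with no filter, 0 with the mean of probe sets (7 at an unadjusted p under 0.05), 10 with array weights, 5 with trended and robust variances, 0 with only the 2 groups in the limma fit (7 unadjusted), 1 without both control replicate 3 and ETV6 replicate 2, and 1 to 3 with each array left out, the fewest without any ETV6 or double siRNA array or NFKB1 replicate 2. Lower were 2: 1 with the median shift, 5 under array weights, 1 with only the groups compared, and 1 to 3 with each array left out, the fewest without control replicate 2 or any ETV6 array. With NFKB1 siRNA 7 were higher: 13 with the median shift, 11 with quantile normalization, 13 under array weights and 4 with just the groups compared. Lower were 11: 6 with the median shift, 6 with only the groups compared and 6 to 11 with an array left out, the fewest without NFKB1 replicate 1. For ETV6 against NFKB1 siRNA 11 became 7 and 6 became 12 with the median shift, and the 6 ran from 3 to 7 with an array left out, the fewest without NFKB1 replicate 2.

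Among all genes called, 827 with ETV6 siRNA became 2342 under array weights, 187 with only the groups compared and 436 to 959 with an array left out, the fewest without ETV6 replicate 1. The 3148 of NFKB1 siRNA became 5136 with every probe set on its own and 1855 with only the groups compared. Every probe set on its own gave 10298 for 6274 with double siRNA, 11031 for 6686 against ETV6 siRNA, 11479 for 6911 against NFKB1 siRNA, 4283 for 2709 between the single knock-downs and 11052 for 6698 in the interaction. The filter at the 50th percentile, which tests fewer genes, gave 4426, 4563 and 4418 for double against ETV6, double against NFKB1 and the interaction. ETV6 against NFKB1 siRNA became 4333 with array weights and ran from 1665 to 3654 with an array left out, the fewest without ETV6 replicate 2.

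The replicate numbers did not pair the arrays: deviations of same-numbered arrays correlated between -0.516 and 0.482 over 18 pairs, over 0.1 in 5. With the replicate block the counts were 2 higher and 2 lower with ETV6 siRNA, 8 and 11 with NFKB1 siRNA and 13 and 18 with double siRNA, and HERPUD1 lost its call with ETV6 siRNA (adjusted p = 0.0594).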

Other observations

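SYVN1, the HRD1 ubiquitin ligase that SEL1L holds, was on the array only through a probe set shared with another gene. That probe set was at 8.28 in control cells and differed by 0.03, 0.18 and -0.59 with ETV6, NFKB1 and double siRNA, and which of its genes gave the signal cannot be told apart. A PHGDH probe set shared with another gene gave -0.05, 0.08 and -0.44, beside -0.20, 0.05 and -0.76 on the one tested. The 2 shared probe sets of HSP90B1 gave 0.47 and 0.59 with double siRNA and -0.41 and -0.38 with NFKB1 siRNA. The promoter windows of NUPR1, PSPH, SHMT2 and PDIA3 were not used here.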
